A study of Mus musculus with 12 samples.

Results

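The matriptase and HGF-MET protease system was followed here in the jejunum of A/J and B6 mice after common bile duct ligation (CBDL). Its 10 members were the proteases St14, Prss8 and Tmprss2, the inhibitors Spint1 and Spint2, the ligands Hgf and Mst1, the HGF activator Hgfac, and the receptors Met and Mst1r. Each member was read by the probe set that carried its symbol alone. All 10 were found, among 19938 genes with such a probe set and 35556 probe sets in all, and each had 1 such probe set. The 4 groups were A/J CBDL, A/J sham, B6 CBDL and B6 sham, with 3 arrays in each (12 arrays). All were male mice of 8 weeks, of the inbred strains A/J or C57BL6J (B6), with no transgene or other allele named in the labels, and jejunum was taken 7 days after the operation. CBDL stops the flow of bile into the intestine, and in sham mice the abdomen was opened but the duct was left alone.

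Matriptase, encoded by St14, is a serine protease anchored in the membrane of epithelial cells, where it cleaves and activates prostasin (Prss8) and can convert the inactive precursor of HGF into the form that binds its receptor, MET. Loss of matriptase is known to make the intestinal epithelium leakier. The Kunitz-type inhibitors encoded by Spint1 (HAI-1) and Spint2 (HAI-2) sit on the same cells and hold matriptase and related proteases in check. MST1, also called macrophage-stimulating protein, is a relative of HGF made chiefly by the liver, and its receptor is the kinase encoded by Mst1r (RON).

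Values are log2 signals after RMA, so a difference of 1 is a doubling of signal, and the signal of one probe set cannot be set against that of another. Array medians lay between 5.36 and 5.51. The labelled tissue was checked against enterocyte genes, and Fabp2 (12.8 to 13.1) and Sis (12.7 to 13.0) gave high log2 signals on every array. The strain labels were checked with H2-Ea, Nnt and Glo1, which differed by 4.74, 1.18 and 1.65 on the log2 scale between sham mice, all higher in A/J. A pair of libraries stood apart from their groups. The mean of 26 measured hepatocyte markers was 7.38 on B6 sham replicate 3, against 5.47 and 6.11 on the other B6 sham arrays. The mean of 14 fibroblast and smooth muscle markers was 7.14 on A/J sham replicate 1, against 8.63 and 8.14 on the other A/J sham arrays, and this array correlated least with the rest (a mean of 0.970, against 0.979 to 0.984 for each other array) and had the lowest array weight (0.382). Because whole tissue was measured, fewer cells of a type and less RNA per cell cannot be told apart. The labels do not say whether the 3 arrays of a group came from separate mice, so the p-values measure the spread between these arrays.

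The start-site regions of a receptor, an inhibitor and a ligand are printed because Met and Spint1 are the members whose signals separated the strains under both operations, while Mst1 stands for the ligand with liver as its main source. They are from RefSeq (GRCm38.p6, plus strand, 300 bases around the annotated start), 5' to 3', at chr6:17463707-17464006 for Met, chr2:119237110-119237409 for Spint1 and chr9:108080186-108080485 for Mst1. Capitals mark the GC box GGGCGG, searched on both strands, so CCGCCC is the same box on the other strand.
Met: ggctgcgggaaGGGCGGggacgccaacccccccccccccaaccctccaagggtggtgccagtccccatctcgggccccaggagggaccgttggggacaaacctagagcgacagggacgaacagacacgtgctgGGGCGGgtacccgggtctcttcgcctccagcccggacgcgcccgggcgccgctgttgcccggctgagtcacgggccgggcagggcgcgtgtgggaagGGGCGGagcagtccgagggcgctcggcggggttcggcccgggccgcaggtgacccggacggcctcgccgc
Spint1: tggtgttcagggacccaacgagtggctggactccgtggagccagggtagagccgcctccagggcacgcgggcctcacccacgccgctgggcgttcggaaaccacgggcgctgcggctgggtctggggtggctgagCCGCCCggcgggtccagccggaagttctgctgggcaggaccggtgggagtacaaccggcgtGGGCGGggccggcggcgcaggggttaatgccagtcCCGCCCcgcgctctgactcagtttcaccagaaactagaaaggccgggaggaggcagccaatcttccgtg
Mst1: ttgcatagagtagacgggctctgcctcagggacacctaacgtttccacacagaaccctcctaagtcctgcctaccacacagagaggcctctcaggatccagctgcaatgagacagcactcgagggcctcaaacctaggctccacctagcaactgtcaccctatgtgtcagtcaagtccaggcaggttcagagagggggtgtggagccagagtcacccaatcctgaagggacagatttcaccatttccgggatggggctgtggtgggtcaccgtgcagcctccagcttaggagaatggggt
Met and Spint1 each held 3 boxes and Mst1 held 0. Of 32851 mouse start-site windows of this length, 35.7% held at least 1 box and 10.7% held 3 or more. The windows of 8 of the 10 members were matched, and Spint2 also held 3 boxes. The assembly represents B6, so bases that differ in A/J are not shown.

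St14 rose after CBDL in A/J mice. Its log2 signal was 10.68, 10.73 and 10.68 in A/J CBDL mice, against 10.03, 10.33 and 10.19 in A/J sham mice. In B6 the values were 10.30, 10.35 and 10.32 with CBDL, against 10.18, 10.06 and 10.09 with sham. CBDL and sham arrays did not overlap in either strain, and the A/J CBDL arrays were the highest of all 12. The difference in A/J was 0.51 (SE 0.09, 95% confidence interval 0.32 to 0.71), a 1.43-fold signal, with an adjusted p of 0.0274 (limma, Benjamini-Hochberg over 35556 probe sets). In B6 the difference was 0.21 (interval 0.01 to 0.41, 1.16-fold) with an adjusted p of 0.606 in limma. Averaged over strains it was 0.36 (SE 0.06, 1.29-fold, adjusted p = 0.0178 in limma). St14 was the 1 member called in A/J and in the strain average, where 0.818% (0.63% higher) and 1.74% (1.12% higher) of all probe sets were called at an adjusted p under 0.05. In B6, limma called 0 members and 0.0534% of all probe sets. There 1 member, St14, was at an unadjusted p under 0.05, against 2718 of all 35556 probe sets.

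**Figure D1:**
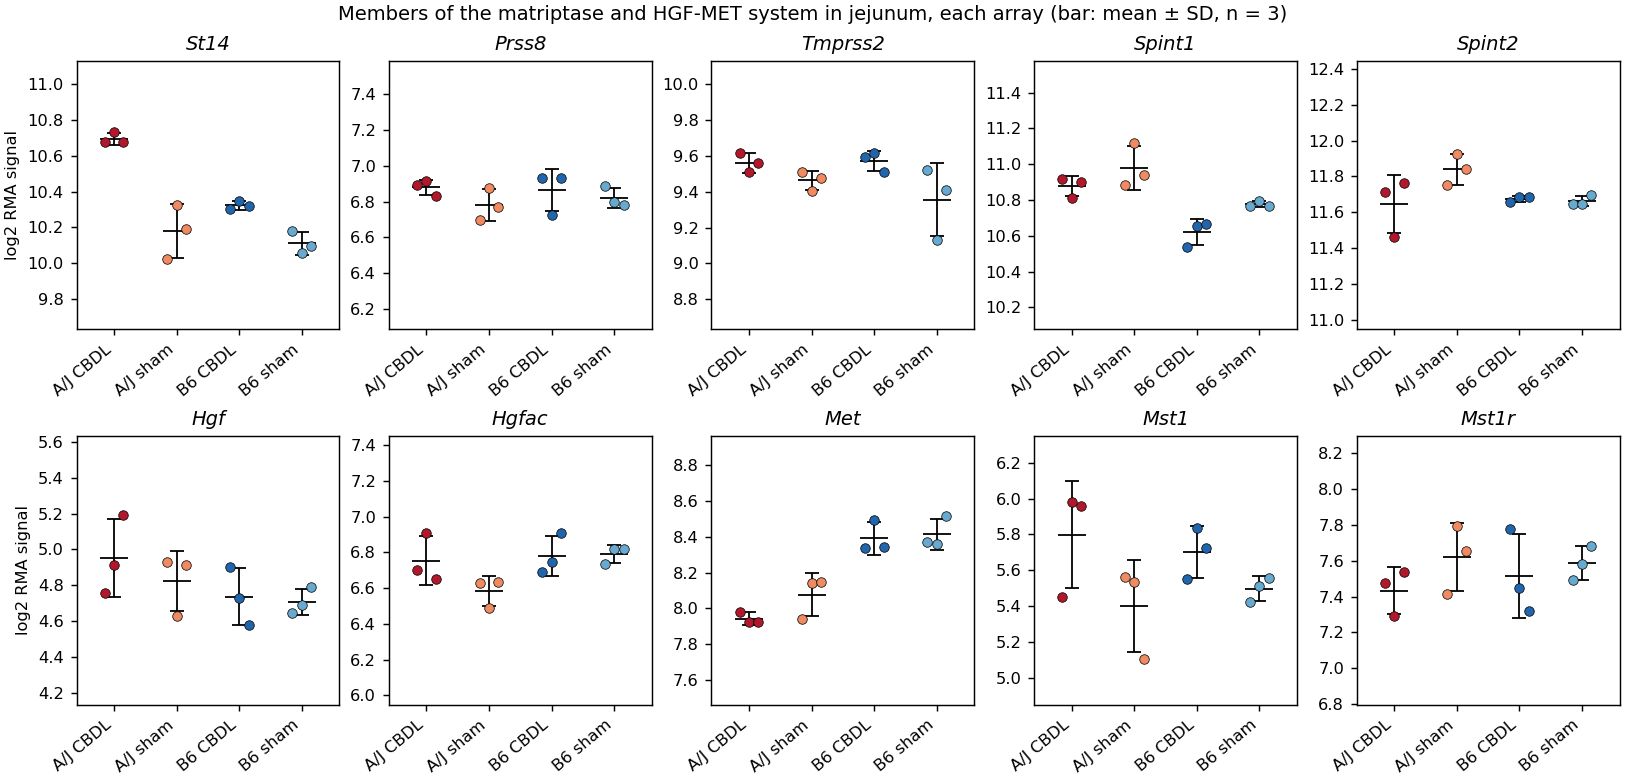
Log2 signal (RMA) of the 10 members, 1 panel per gene, with a point for each array and lines for the group mean ± SD, in A/J CBDL, A/J sham, B6 CBDL and B6 sham mice (3 arrays each). St14 lies between 10.68 and 10.73 on the A/J CBDL arrays, above the other 9 arrays, and Met lies below 8.2 on all 6 A/J arrays and above 8.3 on all 6 B6 arrays.

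The A/J call on St14 was close to the threshold. Its adjusted p in limma was 0.0794, 0.102 and 0.0708 without A/J CBDL replicate 1, 2 or 3, 0.0608 without A/J sham replicate 1 and 0.0507 without B6 CBDL replicate 2, and the averaged call was lost without B6 CBDL replicate 3 (0.0516). The CBDL effect on St14 was 0.30 larger in A/J than in B6 (SE 0.13, interval 0.02 to 0.58), but the interaction had an adjusted p of 0.705 in limma, so a strain difference in the response was not shown. Interaction calls numbered 0 of 10 members and 0.0366% of all probe sets. For the interaction St14 was the 1 member at an unadjusted p under 0.05, against 2447 of all 35556 probe sets.

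In ligated mice the A/J minus B6 difference of St14 was 0.37 (interval 0.18 to 0.57), with no overlap of arrays but an adjusted p of 0.0685 in limma. In sham mice the strains differed by 0.07 (interval -0.13 to 0.27), and their arrays overlapped.

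The order of the groups for St14 was therefore A/J CBDL, B6 CBDL, A/J sham and B6 sham by mean (10.70 ± 0.03, 10.32 ± 0.02, 10.18 ± 0.15 and 10.11 ± 0.06, SD, n = 3 each). Ranges of the middle pair overlapped, as did those of both sham groups. Hepatocyte markers moved with the operation too, and their part in the St14 result was not tested. On B6 sham replicate 3, where the hepatocyte markers were within the range of B6 CBDL (7.34 to 7.56), St14 was 10.09, close to the other B6 sham arrays and below all B6 CBDL arrays. Without that array the St14 difference was 0.20 in B6 and 0.36 averaged over strains (adjusted p = 0.0413 in limma). A/J sham replicate 1, the array with the low fibroblast and smooth muscle markers, was the lowest of all 12 for St14 (10.03). Without it the St14 difference was 0.44 in A/J (adjusted p = 0.0608) and 0.32 averaged over strains (adjusted p = 0.0266), and its A/J minus B6 difference was called in ligated mice (0.37, adjusted p = 0.0418) and over both operations (0.26, adjusted p = 0.0355 in limma).

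The other proteases were not called after CBDL. Prss8, the membrane protease that matriptase activates, had log2 signals of 6.89, 6.92 and 6.83 in A/J CBDL mice, against 6.70, 6.87 and 6.77 in A/J sham mice. B6 mice gave 6.93, 6.73 and 6.93 with CBDL, against 6.88, 6.80 and 6.78 with sham. The ranges overlapped in both strains, and the averaged difference was 0.07 (interval -0.07 to 0.21, adjusted p = 0.672 in limma).

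Tmprss2, another membrane protease of epithelia, read 9.62, 9.51 and 9.56 in A/J CBDL mice, against 9.51, 9.41 and 9.48 in A/J sham mice. In B6 it read 9.59, 9.62 and 9.51 with CBDL, against 9.52, 9.13 and 9.41 with sham. The averaged difference was 0.16 (interval -0.00 to 0.32) with an adjusted p of 0.366 in limma. Its A/J arrays were separated by a small gap, and its B6 arrays overlapped.

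Neither inhibitor was called after CBDL, and both averaged differences were below 0. Spint1 was 10.92, 10.81 and 10.90 in A/J CBDL mice, against 10.88, 11.12 and 10.94 in A/J sham mice. In B6 it was 10.54, 10.66 and 10.66 with CBDL, against 10.77, 10.79 and 10.77 with sham. The B6 arrays did not overlap and the A/J arrays did, but the B6 difference of -0.16 had an adjusted p of 0.752 in limma. The averaged difference was -0.13 (interval -0.26 to 0.01, adjusted p = 0.377).

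Spint2 was 11.72, 11.46 and 11.76 in A/J CBDL mice, against 11.75, 11.93 and 11.84 in A/J sham mice. The B6 values were 11.66, 11.68 and 11.69 with CBDL, against 11.65, 11.65 and 11.70 with sham. The arrays overlapped in both strains. The difference was -0.19 in A/J (interval -0.40 to 0.01) and 0.01 in B6 (interval -0.19 to 0.22), and neither was called by limma.

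As a description with no test, the log2 signal of St14 minus that of Spint1 was taken on each array and centred on the B6 sham mean. It was 0.48 ± 0.09 with CBDL and -0.13 ± 0.05 with sham in A/J, and 0.37 ± 0.06 with CBDL and 0.00 ± 0.07 with sham in B6 (SD, n = 3 each). CBDL arrays were above sham arrays in both strains. The same quantity with Spint2 was 0.60 ± 0.19 with CBDL and -0.11 ± 0.06 with sham in A/J, and 0.20 ± 0.02 with CBDL and 0.00 ± 0.07 with sham in B6.

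Hgf, which is made by mesenchymal cells, was 4.76, 4.91 and 5.19 in A/J CBDL mice, against 4.93, 4.63 and 4.91 in A/J sham mice. B6 mice gave 4.90, 4.73 and 4.58 with CBDL, against 4.65, 4.69 and 4.79 with sham. All groups overlapped, and the averaged difference was 0.08 (interval -0.13 to 0.29). Every Hgf signal was low, between 4.58 and 5.19, below the lowest array median (5.36). Whether this probe set read above background was not tested, so the overlap does not show that Hgf RNA was unchanged. Beside Hgf, the mean of 14 fibroblast and smooth muscle markers was 8.46, 7.78 and 7.96 with CBDL, against 7.14, 8.63 and 8.14 with sham in A/J. In B6 this mean was 7.41 ± 0.13 with CBDL and 8.25 ± 0.31 with sham (SD, n = 3 each). Of the 14, limma called 0 in either strain, with 7 lower in B6 at an unadjusted p under 0.05. That unadjusted threshold was passed in B6 by 2718 of all 35556 probe sets.

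Hgfac, a plasma protease made mainly by the liver that activates HGF, was 6.70, 6.91 and 6.65 in A/J CBDL mice, against 6.63, 6.49 and 6.63 in A/J sham mice. In B6 it was 6.69, 6.74 and 6.91 with CBDL, against 6.74, 6.82 and 6.82 with sham. The A/J arrays did not overlap, but the difference of 0.17 (interval -0.04 to 0.38) had an adjusted p of 0.467 in limma. The B6 arrays overlapped.

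Mst1 was 5.45, 5.98 and 5.96 in A/J CBDL mice, against 5.56, 5.54 and 5.10 in A/J sham mice. The B6 values were 5.55, 5.84 and 5.72 with CBDL, against 5.42, 5.51 and 5.56 with sham. One CBDL array in each strain lay within the sham range. The averaged difference was 0.30 (SE 0.12, interval 0.05 to 0.56, 1.23-fold), with an unadjusted p of 0.0247 and an adjusted p of 0.262 in limma. In A/J it was 0.40 (interval 0.04 to 0.76, unadjusted p = 0.0338 and adjusted p = 0.307 in limma). In B6 it was 0.21 (interval -0.15 to 0.57, adjusted p = 0.886 in limma). St14 and Mst1 were the 2 members at an unadjusted p under 0.05 in A/J, and likewise in the strain average. Of all 35556 probe sets, 5042 passed that unadjusted threshold in A/J and 5000 in the strain average.

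The liver-made members are set beside the hepatocyte markers. The mean of the 26 measured markers was 7.53 ± 0.20 with CBDL and 4.78 ± 0.15 with sham in A/J, and 7.45 ± 0.11 in B6 CBDL mice (SD, n = 3 each), against 5.47, 6.11 and 7.38 in B6 sham mice. Of these markers 18 were called higher in A/J, 0 in B6 (14 at an unadjusted p under 0.05) and 19 in the strain average. Among all probe sets, 0.63% were called higher in A/J and 1.12% in the strain average. In B6 limma called 0.0534%, and 2718 of 35556 were at an unadjusted p under 0.05. Whether hepatocyte RNA entered into the values of Mst1 or Hgfac was not tested.

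**Figure D2:**
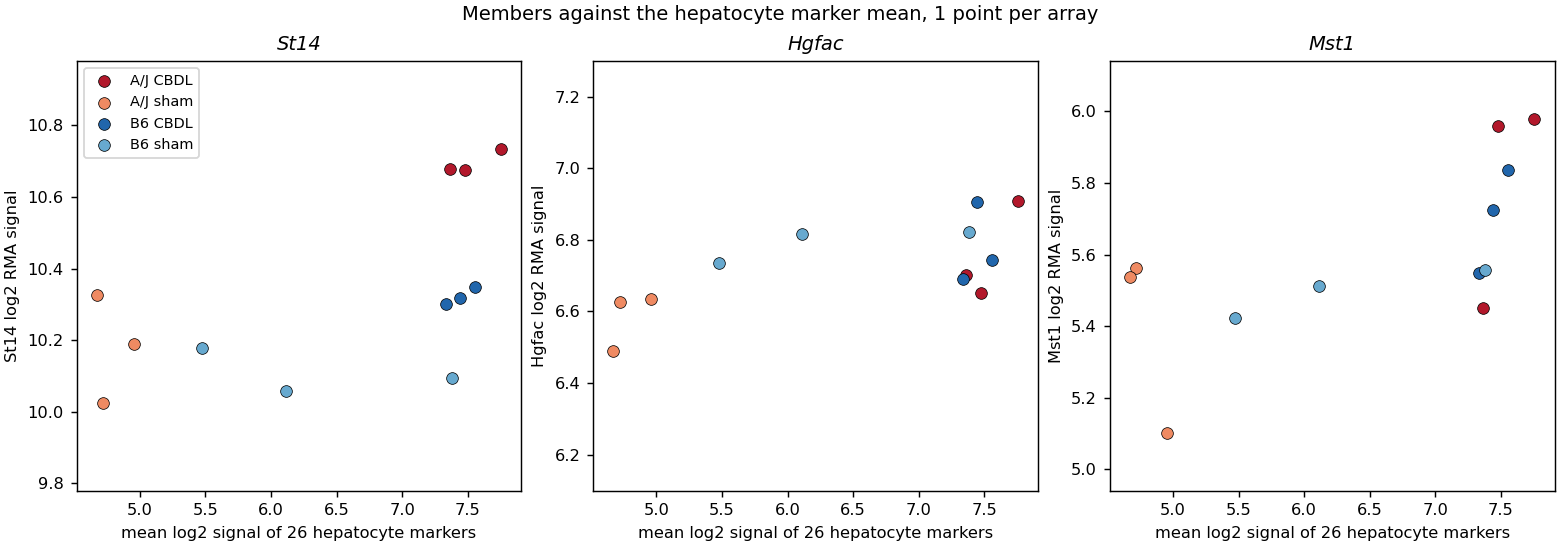
Log2 signal of St14, Hgfac and Mst1 on each of the 12 arrays, plotted against the mean log2 signal of 26 hepatocyte markers on the same array, with groups by colour. B6 sham replicate 3 stands at a marker mean of 7.38, among the CBDL arrays, with St14 at 10.09.

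Neither receptor was called after CBDL, but Met differed between strains. Met, the HGF receptor kinase, was 7.98, 7.93 and 7.92 in A/J CBDL mice, against 8.34, 8.50 and 8.34 in B6 CBDL mice. With sham it was 7.94, 8.14 and 8.15 in A/J, against 8.37, 8.36 and 8.52 in B6. All 6 A/J arrays were below all 6 B6 arrays. The A/J minus B6 difference was -0.45 with CBDL (SE 0.09, fold 0.73, adjusted p = 0.0353) and -0.39 over both operations (SE 0.06, interval -0.54 to -0.25, fold 0.76, adjusted p = 0.00574 in limma). Met was the 1 member called in each, where 1.78% (1.22% lower) and 4.63% (3.12% lower) of all probe sets were called. In sham mice Met differed by -0.34 with an adjusted p of 0.108, and limma called 0 members and 1.87% of all probe sets. Met and Spint1 were the 2 members at an unadjusted p under 0.05 in sham mice, against 5465 of all 35556 probe sets.

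The call within ligated mice was lost on leaving out any of 8 arrays (adjusted p between 0.0539 and 0.156 in limma), among them every A/J CBDL and B6 CBDL array, A/J sham replicate 2 and B6 sham replicate 1. The call over both operations held on leaving out each of the 12 arrays. The CBDL effect on Met was -0.13 in A/J (interval -0.34 to 0.07) and -0.02 in B6 (interval -0.22 to 0.18). A base difference under a probe and a difference in RNA level cannot be told apart between strains, since the probes' sequences were not used here.

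Mst1r, the receptor of MST1, was 7.47, 7.29 and 7.54 in A/J CBDL mice, against 7.42, 7.79 and 7.65 in A/J sham mice. B6 mice gave 7.78, 7.45 and 7.32 with CBDL, against 7.49, 7.58 and 7.68 with sham. The groups overlapped throughout, and the averaged CBDL difference was -0.13 (interval -0.34 to 0.09).

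**Figure D3:**
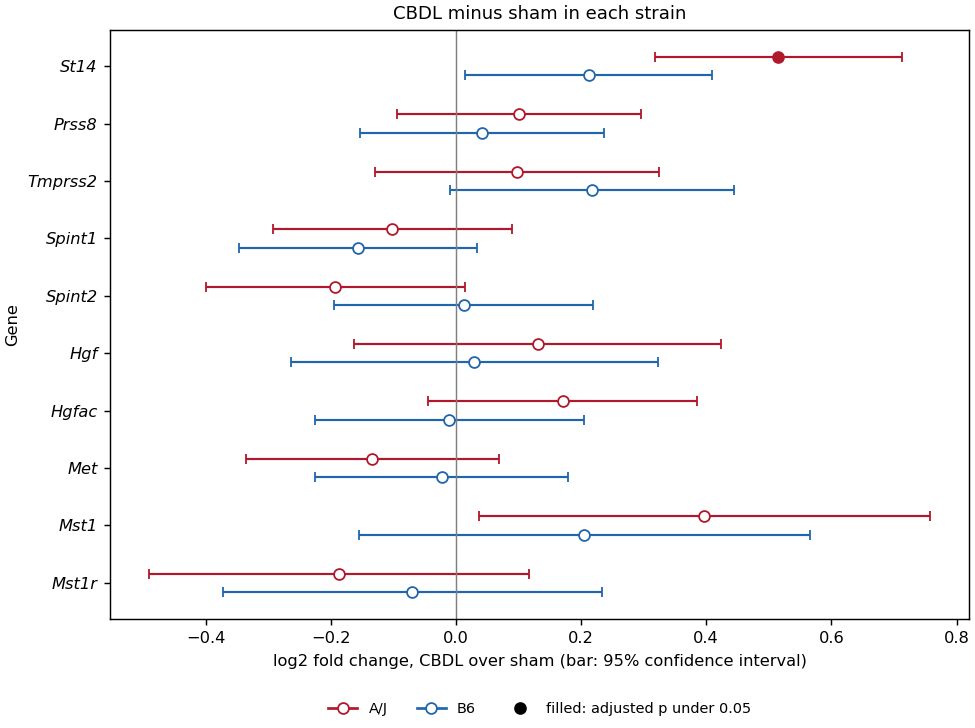
Log2 fold change of the 10 members, CBDL over sham, in A/J and in B6, with 95% confidence intervals from limma on 12 arrays. St14 stands at 0.51 in A/J and 0.21 in B6. The intervals of St14 in both strains and of Mst1 in A/J lie above 0, and all others include 0.

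The A/J arrays of Spint1 lay above the B6 arrays under both operations, with mean differences of 0.26 with CBDL and 0.20 with sham. Over both operations the difference was 0.23 (SE 0.06, interval 0.10 to 0.37), with an adjusted p of 0.0584 in limma. Met and Spint1 were the 2 members whose strains did not overlap under either operation, against 5.49% of all probe sets. In sham mice alone the arrays of Spint1, Spint2, Hgfac and Met did not overlap, and among all probe sets this share was 18.7%. In ligated mice alone those of St14, Spint1 and Met did not overlap, against a share of 21.7%.

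With CBDL against sham, 3 members in A/J (St14, Hgfac and Tmprss2, all higher) and 2 in B6 (St14 higher, Spint1 lower) had arrays that did not overlap. Among all probe sets these shares were 17.1% in A/J and 15.5% in B6. St14 was the 1 member apart in both strains in the same direction, against 3.22% of all probe sets.

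**Figure D4:**
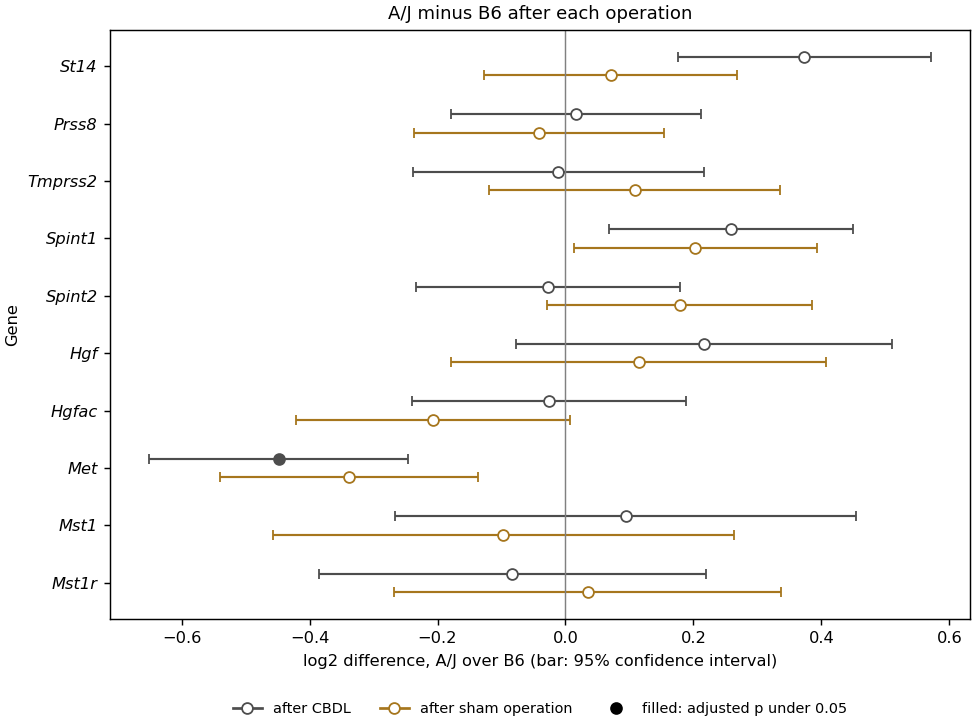
Log2 difference of the 10 members, A/J minus B6, in CBDL mice and in sham mice, with 95% confidence intervals from limma. Met lies at -0.45 with CBDL and -0.34 with sham, and Spint1 at 0.26 and 0.20.

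Around these members, 4 further gene lists were read. Of 23 measured membrane-anchored serine proteases other than the members, 1 rose with CBDL averaged over strains, 0 fell and 22 did not pass. Their median difference was -0.02, against -0.01 over all probe sets, of which 1.74% were called (1.12% higher). The gene that rose was Hpn, which encodes hepsin, a protease abundant on hepatocytes that can activate HGF. Hpn was 6.17, 6.64 and 6.52 in A/J CBDL mice, against 6.06, 5.73 and 5.79 in A/J sham mice. In B6 it was 6.12, 6.31 and 6.31 with CBDL, against 5.75, 6.03 and 5.94 with sham. CBDL arrays were above sham arrays in both strains, and the averaged difference was 0.46 (adjusted p = 0.0454 in limma). The call held on leaving out only 2 of the 12 arrays, A/J CBDL replicate 1 and A/J sham replicate 1, with an adjusted p of up to 0.122 without one of the others. It was also lost with quantile normalization (0.0561), the array median subtracted (0.0552), no empirical Bayes (0.0914) and the replicate block (0.0802). The hepatocyte markers given above moved with CBDL too, and their part in the Hpn result was not tested.

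Tmprss15, the enteropeptidase that activates trypsinogen, is named after its values were seen because it varied widely. It read 7.80, 8.51 and 8.08 in A/J CBDL mice, against 5.93, 4.97 and 6.96 in A/J sham mice, and it was not called (adjusted p = 0.337 in limma). In B6 it read 5.65, 6.87 and 6.80 with CBDL, against 8.96, 4.19 and 7.39 with sham. Between strains, Tpsg1, a membrane-anchored tryptase of mast cells, was lower in A/J by 0.60 on the log2 scale over both operations (fold 0.66, adjusted p = 0.0142 in limma).

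Of the 10 measured proteases and inhibitors that act on HGF, its activator or matriptase, 3 rose in A/J, 0 in B6 (4 at an unadjusted p under 0.05) and 4 in the strain average, and 0 fell. Of all probe sets limma called 0.818% in A/J, 0.0534% in B6 and 1.74% in the strain average, and 2718 of 35556 had an unadjusted p under 0.05 in B6. The list's median averaged difference was 0.40, against -0.01 over all probe sets. Plg encodes plasminogen, and it was 7.52, 8.27 and 7.95 in A/J CBDL mice, against 5.29, 5.38 and 5.13 in A/J sham mice. The B6 values were 7.41, 7.90 and 7.75 with CBDL, against 5.63, 6.11 and 7.60 with sham. The A/J groups were far apart, while B6 sham replicate 3 was within the B6 CBDL range. The averaged differences were 1.94 for Plg, 1.99 for F2 (prothrombin), 1.46 for Serpinc1 (antithrombin) and 0.98 for Serpinf2 (the plasmin inhibitor), with adjusted p of 0.00801, 0.0176, 0.0135 and 0.0173 in limma. All 4 are liver-made plasma proteins, and on B6 sham replicate 3, the array with the high hepatocyte markers, Plg, F2 and Serpinc1 were within the B6 CBDL range while Serpinf2 was below it. The part of hepatocyte RNA in their rise was not tested.

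The A/J difference of F2 was 2.60 (adjusted p = 0.0372 in limma), and this call held on leaving out only 2 of the 12 arrays, with an adjusted p of up to 0.148 without one of the others. In the strain average F2 was lost without A/J CBDL replicate 2 (0.0512) or B6 CBDL replicate 3 (0.0516), and Serpinf2 without A/J sham replicate 2 (0.0555). In A/J, Plg (2.65, adjusted p = 0.0124) was lost without A/J CBDL replicate 2 (0.068) or A/J sham replicate 2 (0.0608). Serpinc1 in A/J (2.07, adjusted p = 0.0178) was lost without A/J CBDL replicate 2 or 3 or A/J sham replicate 1 or 2 (0.0544 to 0.0885). Without empirical Bayes the adjusted p was 0.0715 for Plg, 0.12 for F2 and 0.0784 for Serpinc1 in A/J, and 0.0702 for F2, 0.0572 for Serpinc1 and 0.064 for Serpinf2 in the strain average, so of these 7 calls only that of Plg in the strain average was kept under all alternatives run.

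**Figure D5:**
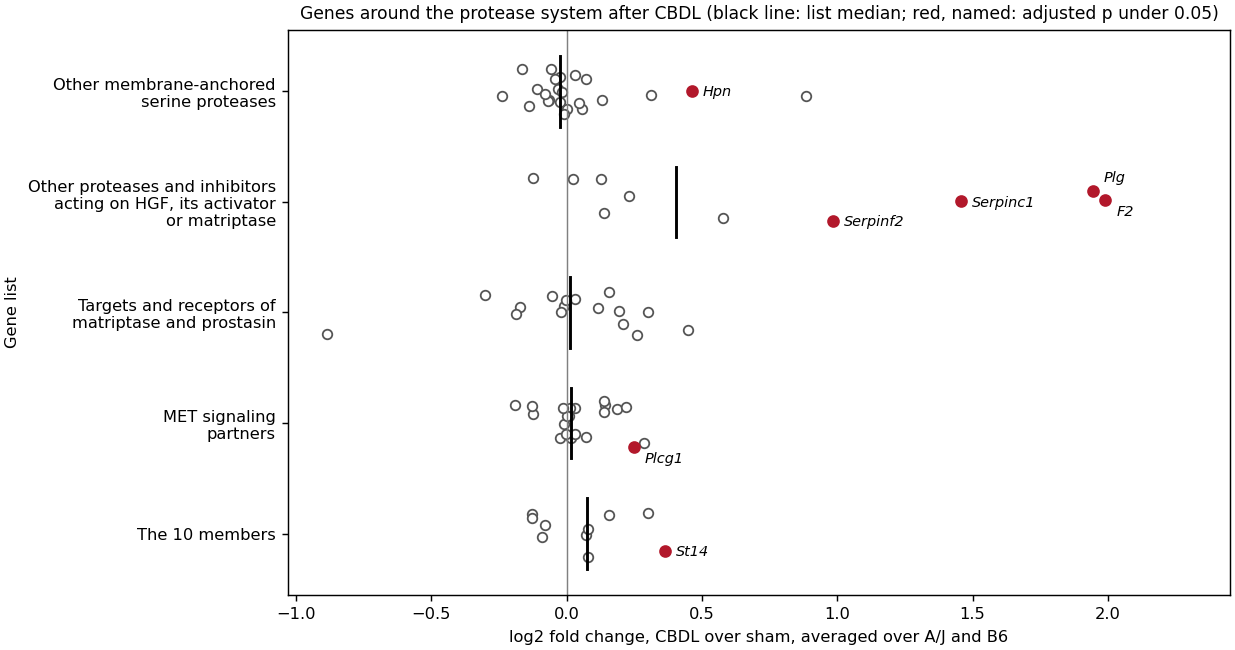
Log2 fold change, CBDL over sham averaged over strains, of each measured gene of 4 further lists and of the 10 members, with a black line at each list's median and genes called by limma filled and named. The list of proteases and inhibitors acting on HGF has its median at 0.40, and Plg and F2 lie at 1.94 and 1.99.

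Of 16 measured targets and receptors of matriptase and prostasin, 0 were called by limma after CBDL in either strain or on average. The median averaged difference was 0.01. On average 6 of the 16 were at an unadjusted p under 0.05, against 5000 of all 35556 probe sets. CBDL arrays were below sham arrays in both strains for 2 of the 16, Epcam and Ocln. Among all probe sets, 3.22% were apart in both strains in the same direction. Ocln, named after its values were seen, was 8.55, 8.55 and 8.65 in A/J CBDL mice, against 8.74, 9.12 and 8.99 in A/J sham mice. In B6 it was 8.298, 8.629 and 8.534 with CBDL, against 8.631, 8.707 and 8.846 with sham. The adhesion molecule Epcam, which matriptase cleaves, differed by -0.17 on average (adjusted p = 0.182 in limma), and the claudin Cldn7 by -0.01 (adjusted p = 0.974). The claudin Cldn4, named after its values were seen, had the lowest averaged difference of the 16, at -0.88, while 8 of the 16 were above 0. Its difference was -0.70 in A/J, where arrays overlapped, and -1.07 in B6. In B6 Cldn4 was 9.22, 8.89 and 8.67 with CBDL, against 10.06, 10.09 and 9.83 with sham, with no overlap. Cldn3, a tight junction claudin, separated the strains in sham mice, with 10.12 ± 0.15 in A/J sham mice and 9.59 ± 0.06 in B6 sham mice (SD, n = 3 each) and no overlap. This difference of 0.53 had an adjusted p of 0.0449 in limma, which held on leaving out 3 of the 12 arrays and was up to 0.173 without one of the others. It was also lost with only the 6 arrays compared (0.142), no empirical Bayes (0.07) and the replicate block (0.0986). In ligated mice the arrays overlapped, at 9.72, 9.62 and 9.99 in A/J against 9.54, 9.64 and 9.49 in B6, and the difference of 0.22 was not called (adjusted p = 0.447). Over both operations it was 0.37 (adjusted p = 0.0257), a call kept on leaving out 7 of the 12 arrays (up to 0.0681) and lost with the replicate block (0.0593).

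Of 21 measured MET signaling partners, 1 rose with CBDL on average, 0 fell and 20 did not pass. Their median was 0.02, and 1.74% of all probe sets were called (1.12% higher). The 1 that rose was Plcg1, a phospholipase recruited by activated receptor kinases. Plcg1 was 6.92 on each of the A/J CBDL arrays, against 6.55, 6.58 and 6.59 in A/J sham mice. B6 mice gave 6.76, 6.77 and 6.81 with CBDL, against 6.68, 6.59 and 6.62 with sham. Arrays did not overlap in either strain, and the averaged difference was 0.25 (1.19-fold, adjusted p = 0.035 in limma). Between strains the adaptor Grb2 was higher in A/J by 0.24 (adjusted p = 0.0497). Both calls were lost on leaving out any 1 array, with an adjusted p of up to 0.101 for Plcg1 and 0.121 for Grb2, and with the replicate block (0.0919 for Plcg1 and 0.097 for Grb2). Plcg1 was also lost with quantile normalization (0.0553) and the array median subtracted (0.0676).

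Markers of the epithelium itself were read as list means. The mean of 12 epithelial markers lay between 9.88 and 10.19 on the 12 arrays, and that of 12 enterocyte markers between 12.15 and 12.37. In B6 the epithelial mean was 10.13 to 10.19 with CBDL, above 10.04 to 10.11 with sham. The B6 enterocyte mean went the other way, at 12.15 to 12.25 with CBDL, below 12.26 to 12.30 with sham. The A/J ranges of both means overlapped. Of the enterocyte markers 1, the lactase gene Lct, was called lower with CBDL on average, by 0.47 on the log2 scale (adjusted p = 0.0303 in limma). None was called higher, and 1.74% of all probe sets were called. By direction alone, 10 enterocyte markers were lower and 2 higher on average. CBDL arrays were below sham arrays in both strains for 3 of them, against 3.22% of all probe sets apart in the same direction in both strains. The means of 12 macrophage and neutrophil markers were 6.45 with CBDL and 6.25 with sham in A/J, and 6.25 with CBDL and 6.36 with sham in B6. The B6 arrays of this mean were 6.19 to 6.29 with CBDL, below 6.32 to 6.43 with sham, while the A/J ranges overlapped. With CBDL 0 of the 12 were called. On average 3 were at an unadjusted p under 0.05, against 5000 of all 35556 probe sets.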

How the data were processed

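Total RNA of jejunum was hybridised to 1 array per sample. The deposited values are log2 signals per probe set, which the authors made, per the labels, with RMA in Affymetrix Expression Console (versions not given in the sources used here), while the published methods name GCRMA and another array type than the probe annotation. Of 35556 probe sets, 21789 had 1 gene name, 1621 several and 12146 none, by the platform's annotation. Groups came from the sample titles. limma 3.58.1 (R 4.3.3) was fitted with 1 mean per group over all 12 arrays, with empirical Bayes variances, for 7 comparisons, and p-values were adjusted by Benjamini-Hochberg over all probe sets (called under 0.05). The script was tested on simulated data. The number of arrays limits the precision. The text names all 10 members, and in each of the 4 further lists up to 4 called genes or, with none called, up to 2 with the highest mean. The marker lists reported are given as means and counts, and of their called genes only Lct is named. Outside this rule it also names Epcam, Cldn4, Cldn7, Ocln and Tmprss15, the tissue check genes Fabp2 and Sis, and the genes of nearest profile. Members and lists were chosen with earlier results of these data known. Alternatives were other normalizations, filters, priors, array weights, a replicate block and each array left out.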

Additional observations from a re-analysis of the deposited data

How the results depend on the processing

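In A/J CBDL versus A/J sham the 1 member called became 0 with only the 6 arrays compared, with the array median subtracted, with the replicate block and with a 1.5-fold minimum, and was 0 to 1 with an array left out. Averaged over strains it was 0 with the fold minimum and 0 to 1 with an array left out. Between A/J and B6 sham it was 2 with array weights (Spint1 and Met), against 0. Between A/J and B6 CBDL the count of 1 was 0 with the 6 arrays, the replicate block or the fold minimum, 2 (St14 added) with only probe sets of 1 name, quantile normalization, a trended robust prior, no empirical Bayes or array weights, and 0 to 2 with an array left out. Over both operations the strain count of 1 was 0 with the fold minimum, 2 without the dimmest 30% of probe sets, with probe sets of 1 name, the median subtracted, the trended prior or no empirical Bayes, 3 with quantile normalization or array weights, and 1 to 3 with an array left out (3 without A/J sham replicate 1). Counts in B6 and for the interaction were 0 under all alternatives run. Deviations of same-numbered arrays correlated between -0.31 and 0.36 (18 pairs), so numbers were not taken as pairs. With the replicate block St14 in A/J had an adjusted p of 0.0689 and Met between CBDL groups 0.0767. Under the settings other than a single array left out, 555 of 600 single values kept direction and side of the threshold, and with an array left out 781 of 840. The causes were not tested. The next brightest probe set was not run, since every member has 1.

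No reversed value had been called. In B6 CBDL versus sham these were -0.0016 for Prss8 and 0.0024 for Met with array weights, -0.051 for Spint2 with quantile normalization, and 0.0078 and 0.0095 for Hgfac with the median subtracted and array weights. For A/J versus B6 sham Prss8 was 0.0276 with quantile normalization and 0.0329 with the median subtracted. For A/J versus B6 CBDL quantile normalization gave 0.0078 for Spint2, 0.0043 for Hgfac and 0.0070 for Tmprss2, and array weights 0.0040 for Spint2. Over both operations, quantile normalization, the median subtracted and array weights gave 0.0369, 0.0296 and 0.0113 for Prss8, 0.045, 0.0406 and 0.0526 for Mst1, and 0.0191, 0.0177 and 0.0727 for Mst1r, and array weights -0.0065 for Tmprss2. For the interaction the median subtracted gave -0.0067 for Prss8 and -0.0099 for Spint1, and array weights -0.0357 for Spint1.

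With an array left out, the values that reversed ranged in B6 CBDL versus sham between -0.053 and 0.11 for Hgf, -0.074 and 0.034 for Hgfac, -0.075 and 0.027 for Met and -0.20 and 0.028 for Mst1r. For A/J versus B6 sham they lay between -0.0026 and 0.15 for St14, -0.089 and 0.00017 for Prss8, -0.18 and 0.052 for Mst1, -0.052 and 0.14 for Mst1r and -0.0039 and 0.19 for Tmprss2. For A/J versus B6 CBDL they lay between -0.051 and 0.051 for Prss8, -0.086 and 0.065 for Spint2, -0.10 and 0.037 for Hgfac, -0.18 and 0.048 for Mst1r and -0.043 and 0.015 for Tmprss2. Over both operations they lay between -0.046 and 0.0085 for Prss8, -0.047 and 0.085 for Mst1, -0.073 and 0.041 for Mst1r and -0.0076 and 0.090 for Tmprss2. For the interaction they lay between -0.0094 and 0.11 for Prss8, -0.016 and 0.20 for Hgf and -0.22 and 0.013 for Mst1r.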

Other observations

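Over the 12 arrays, the genes whose centred profile lay nearest to that of St14 among 19937 other genes were Asb8, Naa60, Ier5, Pde7a and Raph1, with root mean square differences between 0.0925 and 0.108 on the log2 scale, against a median of 0.293 over all genes. Asb8 averaged 8.40 with CBDL and 7.97 with sham in A/J, and 8.24 with CBDL and 7.95 with sham in B6. Nearest to Mst1 were Uroc1, Urah, Fads6, Pcbd1 and Tmprss6 (0.0947 to 0.128, against a median of 0.289). Uroc1, the urocanase of histidine breakdown in liver, averaged 5.35 with CBDL and 5.01 with sham in A/J, and 5.20 with CBDL and 5.10 with sham in B6. Nearest to Hgf were Madd, Olfr1431, Olfr961, Pik3ap1 and Mir672 (0.0829 to 0.0936, against a median of 0.231), and the arrays of Hgf overlapped in every comparison of groups. These likenesses are descriptions over 12 arrays that share their groups.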
